A study of Mus musculus with 6 samples.

Results

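The genes described here are 9 markers of islet endothelial cells (Pecam1, Cdh5, Kdr, Flt1, Tek, Eng, Plvap, Vwf and Esam) and Vegfa, the ligand through which endocrine cells act on those vessels. They were taken by symbol from a count table of 24407 genes; all 10 were in the table, and all 10 were among the 14539 genes that passed the filter on low counts. Poly(A) RNA was counted in islets of Langerhans of C57BL/6 mice of 2 genotypes, all 70 weeks old and kept on regular chow. One group was wild type (WT). The other carried an Lmna change named LCS in the labels and KIKI in the sample titles, and the series title describes it as making lamin C as the sole lamin of the A type. Each group had 3 libraries, and each library pooled the islets of 3 mice, so a library value is already an average over animals. The islets were whole, so endothelial transcripts were measured in a mixture dominated by endocrine cells: Ins2, the main insulin gene, was at 103596 to 163931 CPM (counts scaled to a common library total) in LCS and 81650 to 96235 CPM in WT. In such bulk RNA, fewer cells of a type and less RNA per cell cannot be told apart.

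Islets are among the most densely vascularised endocrine tissues, and their capillaries are fenestrated, that is, pierced by pores that let hormones pass. Beta cells secrete vascular endothelial growth factor A (Vegfa), which binds the receptor tyrosine kinases Kdr (VEGFR2, the main signalling receptor) and Flt1 (VEGFR1, which also exists as a soluble decoy) on endothelial cells. A parallel system runs through the angiopoietin receptor Tek (Tie2), and Eng (endoglin) is a co-receptor for ligands of the TGF-beta family. Pecam1, Cdh5 (VE-cadherin) and Esam are adhesion proteins of endothelial junctions. Plvap builds the diaphragms that span the pores, and Vwf is the clotting factor stored in endothelial granules. Gene counts do not separate the splice forms of Vegfa or the soluble form of Flt1.

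The upstream sequences of the ligand and its 2 receptors are shown because Vegfa was the one gene of the 10 whose genotype groups did not overlap, while the counts of Kdr and Flt1 overlapped. They are the 250 bases before the annotated start, from RefSeq on GRCm38.p6 (the deposited counts were made on another build, mm9), written 5′ to 3′ on the minus strand, which codes for all 3 genes. Capitals mark the motif GGGCGG (the GC box bound by Sp factors), AGGAAG (a core bound by ETS factors) and ACGTG (the core of hypoxia response elements), each searched on both strands, so CCGCCC is GGGCGG on the opposite strand. RefSeq entries were found for 5 of the 10 genes.
Vegfa (chr17:46032378-46032627): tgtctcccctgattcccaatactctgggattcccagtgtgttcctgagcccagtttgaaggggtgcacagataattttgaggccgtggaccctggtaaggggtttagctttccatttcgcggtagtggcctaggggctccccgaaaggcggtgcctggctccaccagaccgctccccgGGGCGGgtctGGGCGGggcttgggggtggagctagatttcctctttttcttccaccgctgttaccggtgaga
Kdr (chr5:75978456-75978705): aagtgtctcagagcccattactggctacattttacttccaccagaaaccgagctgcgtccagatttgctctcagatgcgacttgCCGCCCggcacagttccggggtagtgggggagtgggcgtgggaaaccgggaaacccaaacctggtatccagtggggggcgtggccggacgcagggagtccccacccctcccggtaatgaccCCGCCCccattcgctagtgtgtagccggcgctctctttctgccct
Flt1 (chr5:147726012-147726261): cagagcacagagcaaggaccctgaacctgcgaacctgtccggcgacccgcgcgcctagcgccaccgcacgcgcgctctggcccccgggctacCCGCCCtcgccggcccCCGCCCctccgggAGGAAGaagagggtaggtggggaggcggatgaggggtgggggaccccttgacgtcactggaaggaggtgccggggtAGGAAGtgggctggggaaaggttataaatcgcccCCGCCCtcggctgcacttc
The Vegfa sequence held GGGCGG in 2 places, 72 and 62 bases before the start, and neither of the other motifs. RefSeq lists another Vegfa start, whose window is not shown and held 1 GGGCGG and 1 ACGTG. Kdr held GGGCGG in 2 places and Flt1 in 3, and Flt1 alone of these 3 sequences held AGGAAG, in 2 places. These are common letters: GGGCGG was in 32.7%, AGGAAG in 29.5% and ACGTG in 16.6% of all 32851 RefSeq upstream windows of this length. The GC content was 59.2% for Vegfa, 61.6% for Kdr and 70.4% for Flt1. A match in this window describes the letters and is not a binding site, and the counts do not test one.

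Library totals were 26123654 to 68036676 counts. The rows Rn45s, Lars2 and Mir6236, which collect ribosomal reads, took 52.3% to 54.1% of the LCS counts and 7.64% to 18.5% of the WT counts. Outside those rows the totals were 19057533 to 32462401. Library sizes were therefore scaled by the trimmed mean of M-values (TMM), and CPM throughout means TMM-scaled CPM. Every LCS library had a higher ribosomal share than every WT library, and WT replicate 1 had the highest share in WT, 18.5%. Scaling does not separate the ribosomal share from genotype, and its part in the differences below was not tested. The genotype difference was tested over all 14539 genes with edgeR's quasi-likelihood test, and a gene was called at an adjusted p under 0.05. Of all tested genes, 2.21% were called, 2.06% as higher in LCS.

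None of the 10 genes was called by edgeR. At an unadjusted p under 0.05, 1 of 10 was lower (Vegfa) and 0 were higher, against 10.8% of all tested genes lower and 13.3% higher at that level. Vegfa was also the one gene with no overlap between the groups, on the lower side, as was the case for 12% of all tested genes. DESeq2 called Vegfa alone of the 10, and 11.5% of all genes it tested. The median log2 fold change of the 9 endothelial genes was 0.19, against 0.01 over all tested genes, and 8 of the 9 values were above 0 with a range of -0.02 to 0.72.

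**Figure D1:**
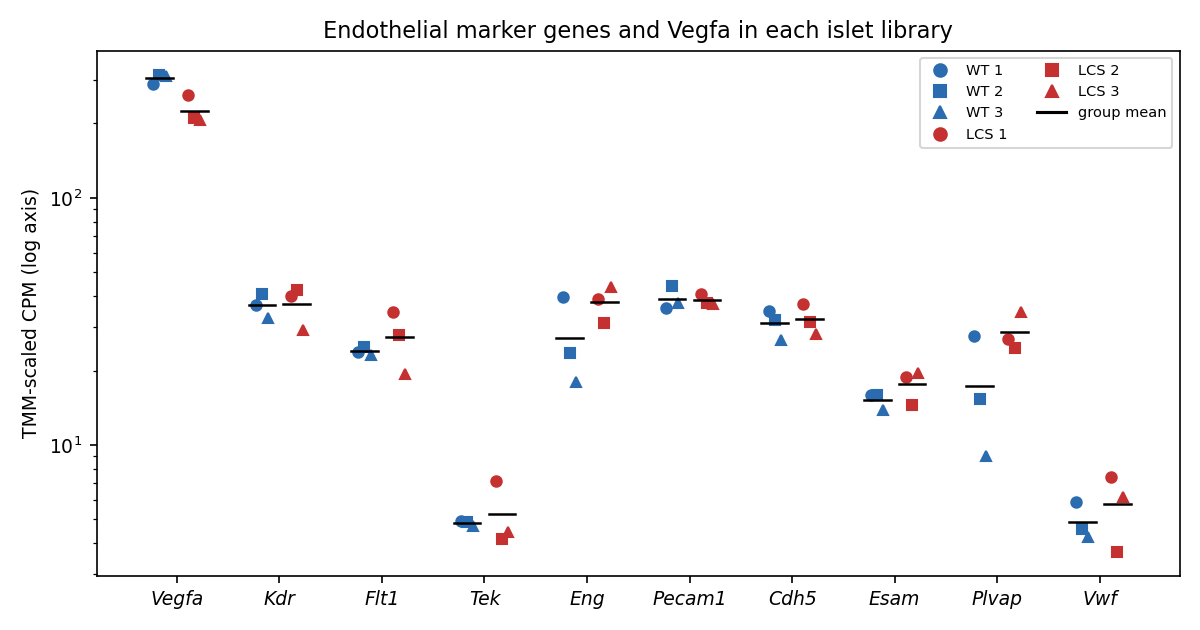
TMM-scaled CPM (log axis) of the 10 genes in each of 3 WT (blue) and 3 LCS (red) libraries, with the group mean as a black bar. Vegfa lies at 288 to 315 CPM in WT and 206 to 261 CPM in LCS, and for each of the other 9 genes the groups overlap.

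In replicate order, Vegfa (gene 22339) was at 288, 315 and 311 CPM in WT and at 261, 209.7 and 206 CPM in LCS. Every LCS library lay below every WT library, and LCS replicate 1 lay closest to the WT values. Between 6453 and 13858 reads were counted per library, so the 95% counting interval was narrow, for example 255 to 267 CPM in LCS replicate 1 and 283 to 293 CPM in WT replicate 1. The group means were 225 ± 30.6 CPM in LCS and 305 ± 14.6 CPM in WT (SD, n = 3), a level in LCS of 0.74 times that in WT. On the log2 scale the difference was -0.44 (SE 0.15, unadjusted 95% interval -0.77 to -0.1), and it did not pass the adjusted threshold (edgeR adjusted p = 0.13, unadjusted p = 0.0157).

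The direction of Vegfa held in all 20 alternative settings, while its call depended on the method. The log2 difference was -0.46 with the DESeq2 Wald test, which called it (adjusted p = 0.0471) along with 4.38% of tested genes as lower. With limma-voom and sample quality weights it was -0.38 and called (adjusted p = 0.015), in a fit that called 16.3% of genes as lower and 19.9% as higher. Leaving out each library in turn gave -0.53 to -0.36, with edgeR adjusted p from 0.062 to 0.385. Over all protein-coding genes the median log2 difference went down with transcript length, from 0.3 among short transcripts to -0.24 among the longest, and up with GC content, from -0.18 under 50% GC to 0.27 at 55% or more, so offsets for both were tried. With offsets for the median length and GC content of each gene's coding transcripts the value was -0.83 (edgeR adjusted p = 0.0329), where 2.38% of genes were called lower. That median is 1143 nt for Vegfa, because the annotation lists many short forms, and with its longest transcript (3451 nt) and that transcript's GC content the value was -0.41 (edgeR adjusted p = 0.121).

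Neither VEGF receptor was called by edgeR or in any of the 20 alternative settings, and Kdr was nearly level between the genotypes. Kdr (gene 16542) was at 39.9, 42.3 and 29.2 CPM in the LCS libraries and at 36.9, 40.9 and 32.6 CPM in the WT libraries, in replicate order. The LCS values surrounded the WT values, and the log2 difference was 0.01 (SE 0.18, unadjusted 95% interval -0.38 to 0.4, edgeR adjusted p = 0.97). Its sign was not fixed: it was -0.01 with DESeq2 size factors and 0.24 with the offset for the longest transcript and its GC content. Flt1 (gene 14254) was at 34.6, 27.97 and 19.3 CPM in LCS and at 23.9, 24.9 and 23.1 CPM in WT. The WT libraries agreed closely (27.3 ± 7.66 CPM in LCS against 23.95 ± 0.904 CPM in WT, SD, n = 3), while LCS replicates 1 and 3 lay on either side of all of them. The log2 difference of Flt1 was 0.19 (SE 0.20, edgeR adjusted p = 0.594), and it was 0.01 without LCS replicate 1 and 0.39 without LCS replicate 3. The offsets for transcript length and GC content raised it to between 0.42 and 0.5, with edgeR adjusted p from 0.0985 to 0.268.

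Tek (gene 21687), the angiopoietin receptor, had low counts, 139 to 237 per library. It was at 7.17, 4.14 and 4.43 CPM in the LCS libraries and at 4.93, 4.86 and 4.68 CPM in the WT libraries, in replicate order. LCS replicate 1 was above every other library and the other LCS libraries were below all WT libraries, so the log2 difference of 0.12 (SE 0.24, edgeR adjusted p = 0.798) turned to -0.14 without LCS replicate 1. The same library was also the highest of the LCS group for Flt1, Cdh5, Pecam1, Vwf and Vegfa.

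None of the junction genes was called, and the groups overlapped for each. Pecam1 (gene 18613) was at 40.7, 37.4 and 37.2 CPM in the LCS libraries and at 35.8, 43.8 and 37.6 CPM in the WT libraries, in replicate order. Its log2 difference was -0.02 (SE 0.14, unadjusted 95% interval -0.34 to 0.29, edgeR adjusted p = 0.932), which corresponds to 0.79 to 1.22 times the WT level. Pecam1 gave the narrowest interval of the 10 genes, and its LCS values lay inside the range of its WT values. Cdh5 (gene 12562) was at 37.1, 31.4 and 28.2 CPM in LCS and at 34.9, 31.9 and 26.7 CPM in WT, with a log2 difference of 0.05 (SE 0.17, edgeR adjusted p = 0.879). Esam (gene 69524) was at 18.8, 14.5 and 19.5 CPM in LCS and at 15.9, 15.99 and 13.8 CPM in WT. Its LCS replicate 2 lay among the WT libraries, and the log2 difference of 0.21 (SE 0.17, edgeR adjusted p = 0.473) turned to -0.12 with the offset for the longest transcript and its GC content. Vwf (gene 22371), counted 163 to 282 times per library, was at 7.41, 3.69 and 6.16 CPM in LCS and at 5.86, 4.56 and 4.26 CPM in WT. The LCS values of Vwf spanned the whole WT range, at a log2 difference of 0.22 (SE 0.27, edgeR adjusted p = 0.646).

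**Figure D2:**
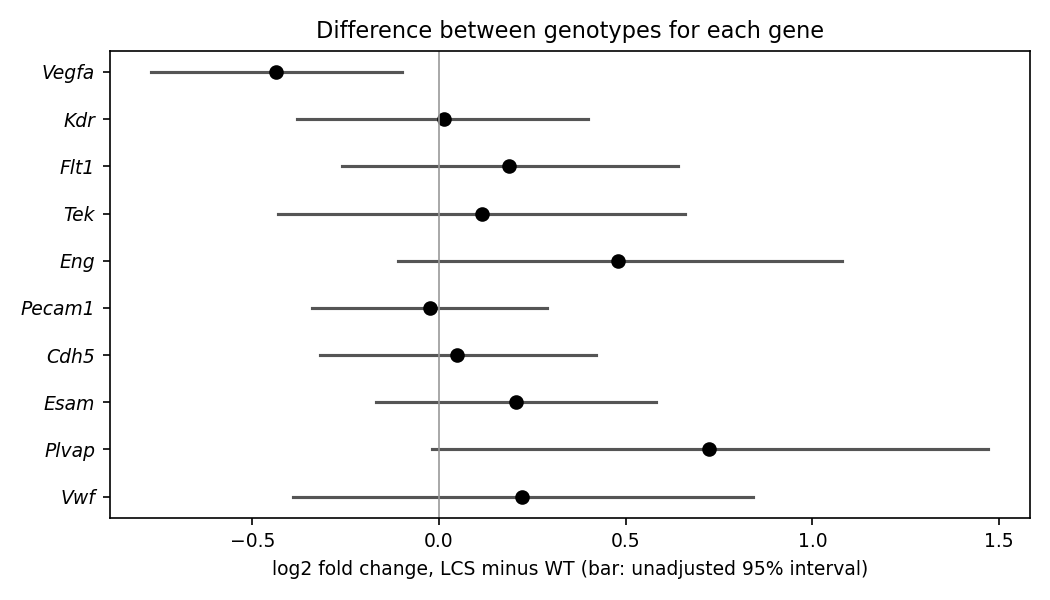
Genotype difference (log2, LCS over WT) of each of the 10 genes, with its unadjusted 95% interval from the edgeR fit. The interval of Vegfa (-0.77 to -0.1) lies below 0, and those of the 9 endothelial genes include 0, from -0.34 to 0.29 for Pecam1 to -0.02 to 1.47 for Plvap.

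Eng and Plvap stood apart from the other endothelial genes by their spread within WT. Eng (gene 13805) was at 39.7, 23.5 and 18.03 CPM in WT and at 38.8, 31.2 and 43.5 CPM in LCS, in replicate order. WT replicate 1 reached the LCS values and was 2.2 times WT replicate 3. Plvap (gene 84094) was at 27.5, 15.3 and 9.04 CPM in WT and at 26.8, 24.6 and 34.4 CPM in LCS. Here too WT replicate 1 lay among the LCS libraries, 3.04 times above WT replicate 3, whereas for the 7 other endothelial genes the highest WT library was 1.05 to 1.38 times the lowest. Eng differed by 0.48 on the log2 scale (SE 0.27, edgeR adjusted p = 0.296). Plvap differed by 0.72 (SE 0.33, edgeR adjusted p = 0.22).

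The call for these 2 genes depended on WT replicate 1. Without it, Eng was higher in LCS by 0.86 on the log2 scale (edgeR adjusted p = 0.0127) and Plvap by 1.23 (edgeR adjusted p = 0.00717), and both were called, in a fit that called 12.5% of all tested genes as higher. With WT replicates 1 and 2 both left out, because their title numbers lie far from the other 4, the values were 1.07 and 1.66 (edgeR adjusted p = 0.0335 and 0.00594). That fit has a single WT library, which is assumed to vary like the LCS libraries, and it called 5.77% of genes as higher. With sample quality weights in limma-voom both were called too, at 0.72 and 0.93 (adjusted p = 0.0045 and 0.00447). Leaving out any of the other 5 libraries gave 0.26 to 0.63 for Eng and 0.42 to 0.85 for Plvap, none called.

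GC content moved with the level of WT replicate 1. The longest transcripts of Plvap and Eng are 60.6% and 57.4% GC, the highest values among the 9 endothelial genes, followed by Vwf at 56.5%, and the other 6 lie at 47.1% to 53.7%. Over these 9 and 35 other endothelial genes, WT replicate 1 was above both other WT libraries for 12 of 13 genes with at least 55% GC, with a median log2 difference of 0.62, and for 6 of 15 genes under 50% GC, with a median of 0.02. Spearman's rho between GC content and this difference was 0.72 over the 44 genes, which share the same 3 libraries and are not independent replicates. GC content moved with the genotype difference as well: rho was 0.59 over the same 44 genes, and the median log2 difference between LCS and WT was 0.6 at 55% GC or more and 0.05 under 50%. All 13635 protein-coding genes with a known length showed the same order: medians of 0.47 at 55% GC or more and -0.23 under 50%, with WT replicate 1 on top for 81.5% and 19.7% of genes. With the offset for the longest transcript and its GC content Eng stood at 0.39 and Plvap at 0.34 (edgeR adjusted p = 0.218 and 0.275). Both values stayed above 0 and below those with no offset.

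**Figure D3:**
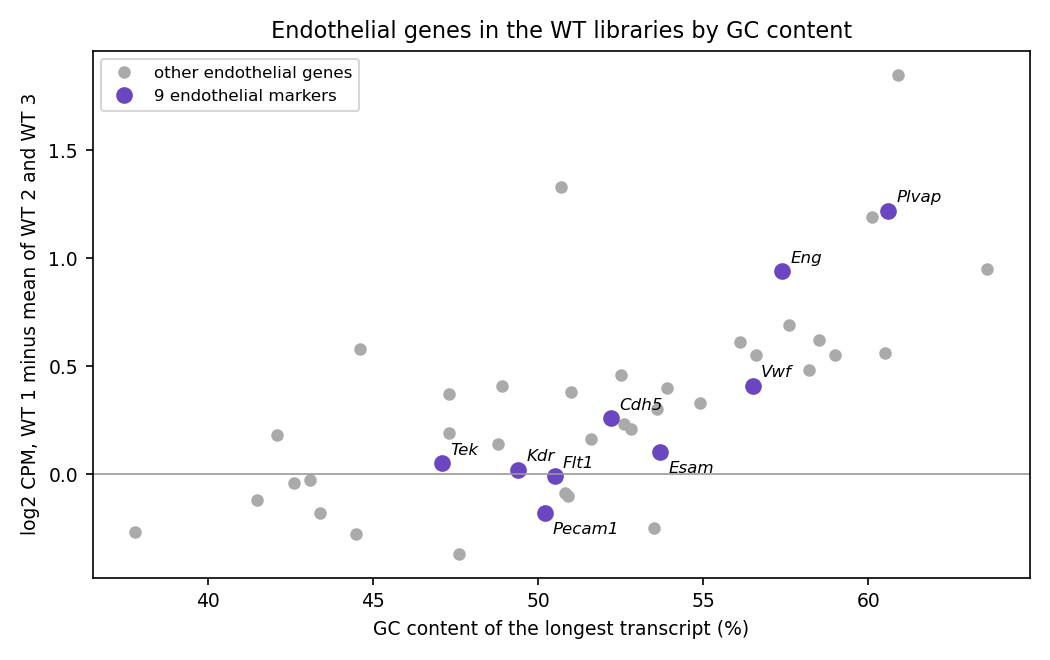
Difference in log2 CPM between WT replicate 1 and the mean of WT replicates 2 and 3 (vertical axis) against the GC content (%) of the longest transcript, for the 9 endothelial markers (purple) and 35 other endothelial genes (grey). Plvap (60.6% GC) and Eng (57.4% GC) lie at 1.22 and 0.94, while Kdr (49.4% GC) and Flt1 (50.5% GC) lie at 0.02 and -0.01.

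Correlations differed between pairs of genes. Across the 6 libraries the Pearson correlation of log2 CPM was 0.98 between Eng and Plvap, 0.85 between Vwf and Esam, 0.78 between Kdr and Flt1, 0.77 between Eng and Esam and 0.74 both between Cdh5 and Flt1 and between Tek and Vwf. It was lower among the junction genes, at 0.24 between Pecam1 and Cdh5, 0.16 between Pecam1 and Esam and 0.34 between Cdh5 and Esam, and it was -0.01 between Kdr and Plvap. Vegfa correlated with Plvap at -0.71 and with its receptors Kdr and Flt1 at 0.17 and 0.09. These are descriptions of 6 libraries that share their scaling. Plvap made up 12.2%, 7.43% and 5.32% of the summed CPM of the 9 endothelial genes in WT replicates 1 to 3 and 10.7%, 11.3% and 15.5% in LCS replicates 1 to 3. Pecam1, by contrast, made up 16.2% to 17.2% in LCS and 15.9% to 22.1% in WT.

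**Figure D4:**
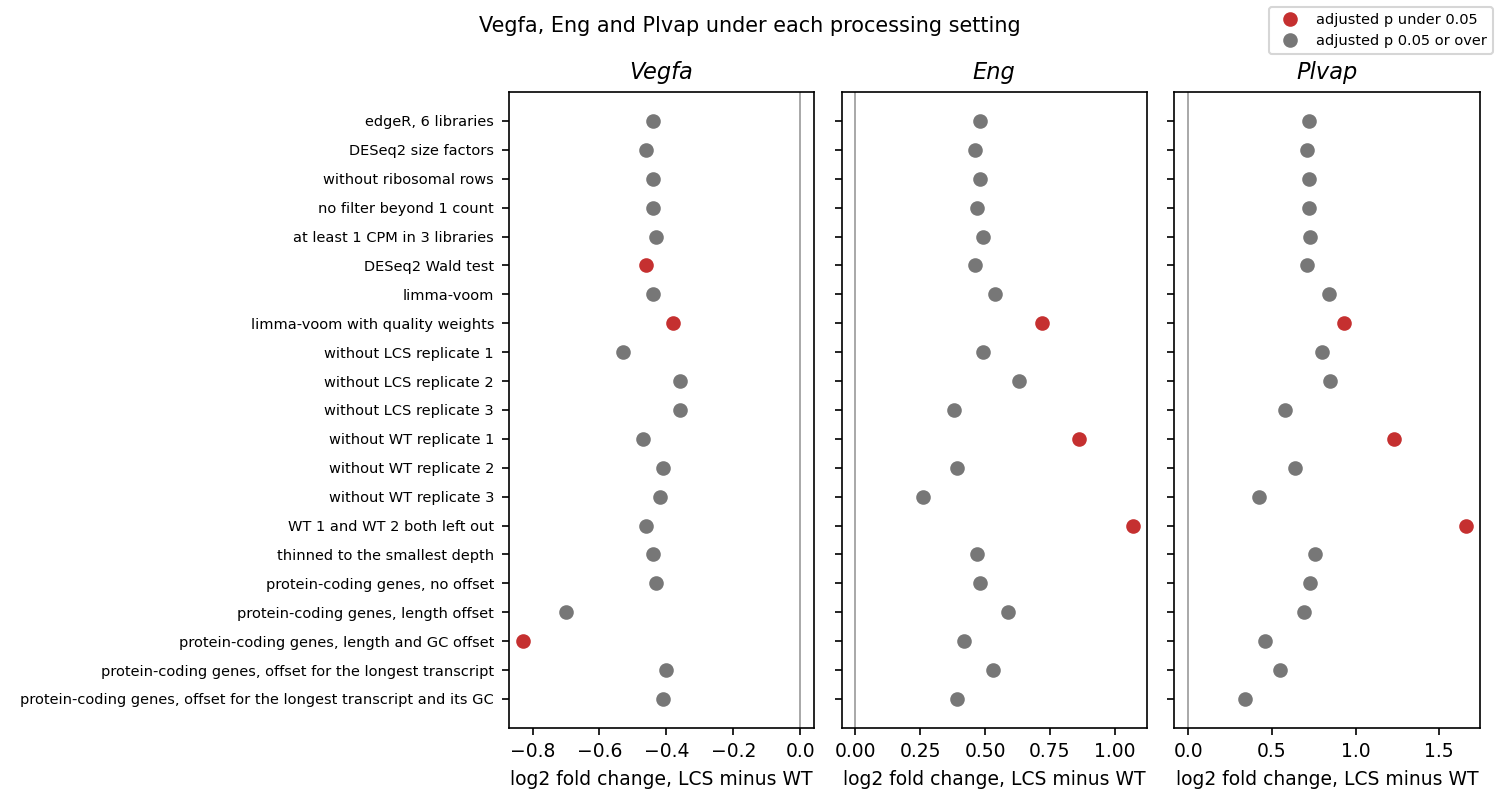
Genotype difference (log2, LCS over WT) of Vegfa, Eng and Plvap under the main edgeR fit and 20 alternative settings, in red where the adjusted p is under 0.05. Vegfa stays between -0.83 and -0.36, whereas Plvap runs from 0.34 to 1.66 and is called without WT replicate 1, without WT replicates 1 and 2, and with quality weights.

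Summed over the 9 endothelial genes, the level was 251, 217 and 222 CPM in LCS and 225, 206 and 169.8 CPM in WT, in replicate order. The groups overlapped at WT replicate 1, and the means were 230.1 ± 18.4 and 200.3 ± 28.2 CPM (SD, n = 3), a ratio of 1.15. Leaving out each library gave ratios of 1.07 to 1.23. Vegfa went the other way, so that Vegfa CPM per endothelial CPM was 1.04, 0.965 and 0.928 in LCS and 1.28, 1.53 and 1.83 in WT. That ratio did not overlap between the genotypes, as was already so for Vegfa alone. It is given as a description, with no test, because it combines chosen genes.

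**Figure D5:**
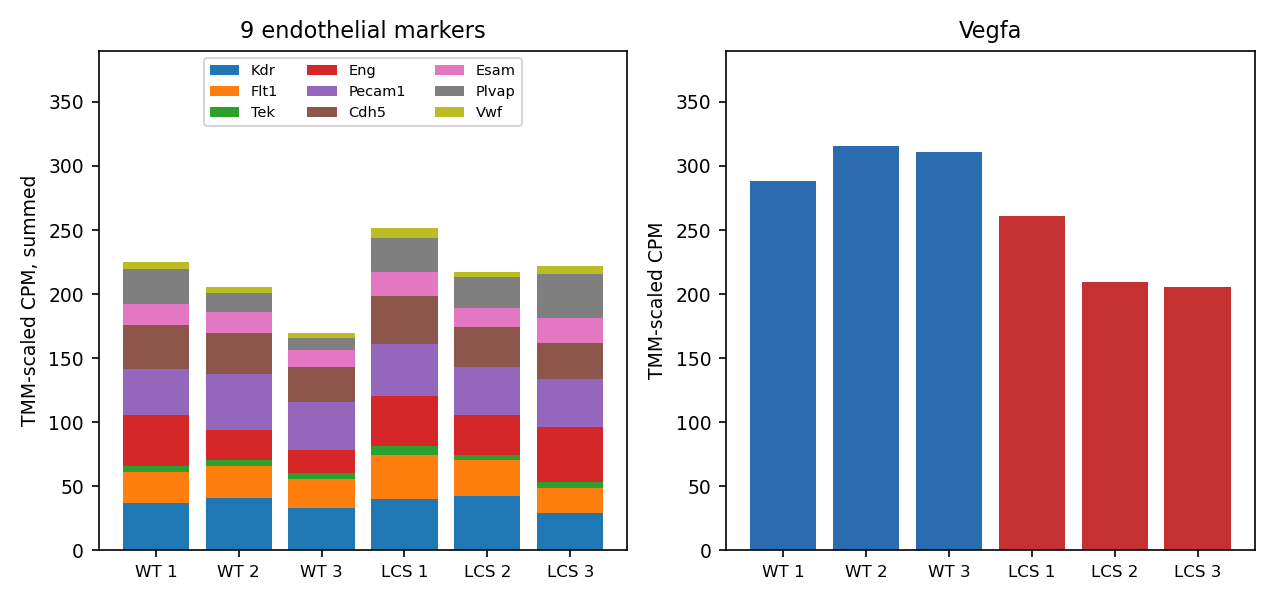
Left, TMM-scaled CPM of the 9 endothelial genes stacked per library; right, Vegfa in the same libraries (WT blue, LCS red). The stacks stand at 169.8 to 225 CPM in WT and 217 to 251 CPM in LCS, and Vegfa at 288 to 315 and 206 to 261 CPM.

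Levels can be compared between genes per kilobase of the longest annotated coding transcript. On this scale Vegfa stood first by far, at 65.3 ± 8.87 CPM per kb in LCS and 88.3 ± 4.23 CPM per kb in WT (SD, n = 3). Plvap (4.55 to 17.3 CPM per kb over the 6 libraries), Pecam1 (10.4 to 12.7), Eng (5.27 to 12.7), Esam (7.4 to 10.5) and Cdh5 (6.68 to 9.28) followed, each overlapping with its neighbours in this order. Kdr (4.92 to 7.14) came next and overlapped with Cdh5, Eng and Plvap but not with Esam or Pecam1. Flt1 (2.8 to 5.02) overlapped with Kdr and Plvap. Tek (0.89 to 1.54) and Vwf (0.418 to 0.839) were lowest, with ranges that met neither each other nor any other gene. The places of Esam, Cdh5 and Vwf depend on the transcript used. Per kilobase of the median coding transcript, Esam (23.4 CPM per kb) and Cdh5 (14.6) stood above Pecam1 (12.4), Plvap (11.5) and Eng (10.1), and Vwf (2.44) stood above Tek (1.11).

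A wider list held 38 endothelial genes, of which 35 were tested; Tie1, Ptprb, Aplnr and Esm1 are also on the pathway list described next. None was called by edgeR. The unadjusted p was under 0.05 for 7 genes, 6 of them higher and 1 lower in LCS. At that level 13.3% of all tested genes were higher and 10.8% lower. The median log2 difference of the list was 0.19, the same as for the 9 markers. DESeq2 called 1 of them and 11.5% of all genes it tested. Groups did not overlap for 5 on the higher side and for 1 on the lower side, against 14.6% and 12% of all tested genes. The 4 with the smallest p were Ecscr, an endothelial surface protein, at 0.80 (SE 0.20), Egfl7, a secreted vessel protein, at 0.76 (SE 0.27), Gpihbp1, which carries lipoprotein lipase across capillaries, at 0.57 (SE 0.22), and Acvrl1, a receptor that works with Eng, at 0.60 (SE 0.23). Their edgeR adjusted p were 0.07, 0.136, 0.157 and 0.158. Ecscr was at 12.8, 9.09 and 13.2 CPM in LCS and 6.36, 7.67 and 6.06 CPM in WT, with no overlap. Without WT replicate 1, 6 of the 35 were called, in a fit that called 20.2% of all tested genes, so that count lies near the background.

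Of 27 VEGF and angiopoietin pathway genes 25 were tested and none was called by edgeR or DESeq2, at a median of 0.12. The unadjusted p was under 0.05 for 2 genes above WT and 1 below, against 13.3% and 10.8% of all tested genes. The ligand genes Vegfb and Figf (Vegfd) stood at 0.88 (SE 0.31) and 0.91 (SE 0.40), Aplnr, the apelin receptor, at -1.06 (SE 0.44) and the signalling enzyme Plcg1 at -0.35 (SE 0.19), and their adjusted p from edgeR were 0.136, 0.202, 0.179 and 0.279. Figf was near the detection limit, at 0.542 to 0.559 CPM in LCS and 0.287 to 0.296 CPM in WT. Vegfb ran from 7.97 to 16.5 CPM in LCS and from 5.02 to 9.65 CPM in WT, with WT replicate 1 again the highest WT library. Angpt1 and Angpt4, ligands of Tek, had 25 and 1 counts in all 6 libraries together and were not tested.

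Genes of the hypoxia response, which includes the transcription factors known to drive Vegfa, did not move in 1 direction. Of 20 listed genes 18 were tested. None was called by edgeR and 1 by DESeq2, which called 11.5% of all genes it tested. The unadjusted p was under 0.05 for 3 genes above WT and 2 below (median 0.19), against 13.3% and 10.8% of all tested genes. Hif1a and its partner Arnt, the subunits of hypoxia-inducible factor 1, stood at -0.56 (SE 0.20, edgeR adjusted p = 0.134) and -0.47 (SE 0.17, edgeR adjusted p = 0.148). Epas1, another transcription factor of the list, named after its values were seen, stood at 0.22 (SE 0.18, edgeR adjusted p = 0.484), with overlapping groups. Over the 18 tested genes, 12 differences were above 0 and 6 below. Among known targets of hypoxia-inducible factor 1, Ankrd37 stood at 0.80 (SE 0.20, edgeR adjusted p = 0.0648). Ldha, a glycolytic enzyme, stood at 0.52 (SE 0.19, edgeR adjusted p = 0.139). Egln3, Adm, Slc2a1, P4ha1 and Pgk1 stood at 0.55, 0.43, 0.35, 0.20 and 0.17. Pdk1, Ddit4, Ndrg1 and Bnip3 stood at -0.19, -0.15, -0.03 and 0.06. All of these targets but Ankrd37 and Ldha were named after their values were seen. Hif1a was at 36.1, 55.5 and 34.6 CPM in LCS and 58.2, 58.7 and 69.7 CPM in WT, and Arnt at 29.4, 33.4 and 21.8 CPM in LCS and 37.2, 38.96 and 41.2 CPM in WT. For both, every LCS library lay below every WT library, which held for 2 of the 18 genes against 12% of all tested genes. On the higher side 6 of the 18 did not overlap (Ankrd37, Ldha, Egln2, Adm, Vhl and P4ha1), against 14.6% of all tested genes.

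Other cell types whose RNA could carry part of these transcripts were measured beside them. Of 11 macrophage and leukocyte markers tested, 1 was called higher, against 2.06% of all tested genes. It was the lysozyme gene Lyz2 (1.48, SE 0.23, edgeR adjusted p = 0.0142). The median of the 11 markers was 0.07, with 6 above 0 and 5 below (Ptprc, Itgam, Mrc1, Csf1r and Cd68). Their summed level was 88.7 to 104 CPM in LCS and 60.5 to 75.8 CPM in WT, and most of that difference came from C1qa (mean 39.1 against 22.7 CPM) and Lyz2 (14.2 against 5.08 CPM). Platelets and megakaryocytes also carry Pecam1 and Vwf; none of 4 tested markers was called, and the summed level was 4.36 to 5.35 CPM in LCS and 2.61 to 3.6 CPM in WT, while Ppbp, Gp9 and Gp1ba had 6, 44 and 2 counts in all. No red blood cell marker passed the filter, and the 4 globin genes listed had 0 counts in all libraries. Of 10 islet endocrine genes, whose cells make Vegfa, 1 was called higher, against 2.06% of all tested genes. It was the pancreatic polypeptide gene Ppy (1.86, SE 0.30, edgeR adjusted p = 0.0172). The somatostatin gene Sst stood at 1.57 (SE 0.48, edgeR adjusted p = 0.103) and Ins2 at 0.63 (SE 0.26, edgeR adjusted p = 0.186), and the median of the 10 was 0.31. Their summed level was 198757 to 296022 CPM in LCS and 166672 to 192160 CPM in WT, with no overlap. Most of that difference came from Ins2 (mean 135420 against 87436 CPM). Groups did not overlap for 4 of the 10, all higher (Ppy, Sst, Ins2 and Gcg), against 14.6% of all tested genes. They overlapped for Ins1, Iapp, Chga, Pdx1, Mafa and Nkx6-1. None of 7 tested duct markers was called by edgeR (median 0.02). At an unadjusted p under 0.05, 1 was higher, as were 13.3% of all tested genes. The summed level of the duct markers overlapped, at 598 to 702 CPM in LCS and 370.5 to 694 CPM in WT. Acinar markers were called higher for 16 of 17 tested genes, against 2.06% of all tested genes. Their summed level was 588 to 1005 CPM in LCS and 195 to 296 CPM in WT. The part of these cell types in the values of the 10 genes was not tested.

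The genes most like the endothelial mean, by the Pearson correlation of log2 CPM over 6 libraries among 9678 genes with at least 5 CPM, were Kctd7 (0.992), Mcam (0.991), Ipo13 (0.987), Mier2 (0.985) and Dact2 (0.985). Mcam, an adhesion protein found on endothelial cells and pericytes, stood at a log2 difference of 0.12 (SE 0.16). Those most like Vegfa were Rrp1b (0.997), Dgcr8 (0.997), Slc25a37 (0.993), Ube2h (0.99) and Vash1 (0.988). Vash1 codes for vasohibin, a secreted protein that restrains vessel growth, and stood at -0.39 (SE 0.15, edgeR adjusted p = 0.159). With 9678 genes ranked over 6 points, the list is a description only.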

How the data were processed

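RNA from islets of 3 LCS and 3 WT pools was sequenced from stranded TruSeq libraries, per the labels' protocols. Per the submitters' processing notes, reads were handled with HTSeq 0.9.0, TopHat2 2.1.1, Bowtie2 2.2.9, FastQC and bcl2fastq 2.20 on mm9; no roles are given. Annotation and strand setting: not given in the sources used here. Overlapping and antisense genes may therefore share reads. Values are raw counts per gene as deposited, per the file headers and their whole numbers. No 2 libraries of a group agreed within sampling noise (smallest chi-square per degree of freedom 22.7). No batch or pairing was labelled; replicates were numbered in accession order, and p-values measure the spread between these pools.

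Counts were filtered with filterByExpr, scaled by TMM (factors 0.633 to 1.498) and tested with edgeR 4.0.16 in R 4.3.3, with genotype as the only term and Benjamini-Hochberg adjustment over 14539 genes. Log2 CPM used a prior count of 2. Counting intervals are exact Poisson 95% intervals and cover counting error only; intervals of fold changes use the degrees of freedom of the test. Values of 20 alternatives, with DESeq2 1.42.0 and limma 3.58.1 among the tools, are in the closing section; 3 of them, the length and GC offset and both offsets for the longest transcript, were chosen after seeing the data. Transcript lengths and GC content came from GENCODE M21 (GRCm38), which gave a length for 93.9% of tested genes; loess offsets used a span of 0.5. Only the main edgeR fit was run on simulated counts, drawn from its own dispersions with no length or GC effect. The other settings were not simulated. The members and gene lists were chosen with earlier results of these data known. The text names all 10 genes, up to 4 genes of each list with the smallest p, and the 5 genes most correlated with the endothelial mean and with Vegfa; other genes were named after their values were seen.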

Additional observations from a re-analysis of the deposited data

How the results depend on the processing

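The number of genes called moved most. It was 321 in the main fit, 686 with no filter, 1507 with DESeq2, 5257 with quality weights, 1215 without WT replicates 1 and 2, 40 with the length offset, 625 with the length and GC offset, 31 with the offset for the longest transcript and 81 with that offset and GC content. Leaving out each library gave 82 to 2999 calls: 82 without LCS replicate 3, 89 without LCS replicate 1, 114 without WT replicate 2, 144 without WT replicate 3 and 2999 without WT replicate 1. The count among the 10 genes was 0 in the main fit, 1 with DESeq2, 3 with quality weights, 2 without WT replicates 1 and 2, 1 with the length and GC offset, and 0 to 2 when each library was left out. The summed endothelial ratio moved by more than the spread of the LCS replicates, whose SD was 0.0919 of the WT mean, in 3 settings. It was 1.36 without WT replicates 1 and 2, 1.27 with the length offset and 1.26 with the offset for the longest transcript. The WT replicates, not used for that threshold, spread more widely (SD 28.2 CPM against 18.4 CPM in LCS). The ratio was 1.07 to 1.23 when each library was left out. No call of Pecam1, Cdh5, Kdr, Flt1, Tek, Vwf or Esam was made in any of the 20 alternatives. The sign changed in some settings for Pecam1, Cdh5, Kdr, Tek and Esam. Pecam1 became positive at 0.03 without WT replicates 1 and 2, 0.07 with the length offset, 0.09 with length and GC, and 0.01 with each offset for the longest transcript. Cdh5 was -0.04 with length and GC. Kdr was -0.01 with DESeq2 size factors and the DESeq2 test and -0.05 with quality weights. Esam moved furthest from its main value of 0.21 with length and GC, to -0.32 (edgeR unadjusted p = 0.0384, adjusted p = 0.186). It was -0.16 with the length offset, -0.05 with the offset for the longest transcript and -0.12 with that offset and GC. Leaving out each library gave -0.08 to 0.07 for Pecam1, -0.05 to 0.14 for Cdh5, -0.07 to 0.17 for Kdr and -0.14 to 0.29 for Tek. The cause of these changes was not tested. Thinning every library to 19057533 counts outside the ribosomal rows called none of the 10 genes.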

Other observations

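Cells that line or surround the vessels gave values of their own. Of 12 pericyte and smooth muscle genes 10 were tested and none was called by edgeR. The unadjusted p was under 0.05 for 3 genes above WT and 0 below, against 13.3% and 10.8% of all tested genes. The median log2 difference was 0.38. The contractile genes Myh11 and Acta2 and the filament gene Des stood at 0.95 (SE 0.33), 0.95 (SE 0.34) and 1.29 (SE 0.53), at levels of 1.38 to 3.41 CPM in LCS and 0.493 to 1.73 CPM in WT. The pericyte genes Pdgfrb and Rgs5, named after their values were seen, stood at 0.11 (SE 0.27) and -0.22 (SE 0.30), and the channel subunit gene Abcc9 at -0.61 (SE 0.35). Of 6 lymphatic markers 4 were tested and none was called by edgeR; Lyve1, a hyaluronan receptor also found on macrophages, was at 6.01, 6.74 and 6.51 CPM in LCS and 8.63, 9.33 and 8.96 CPM in WT, with no overlap (-0.48, SE 0.17, edgeR adjusted p = 0.132), while Ccl21a and Mmrn1 had 0 counts. The fibroblast gene Col1a1 varied widely within WT. It was at 26.5, 2.69 and 6.87 CPM in WT replicates 1 to 3 and at 15.7, 6.19 and 4.75 CPM in LCS replicates 1 to 3. Lum, another fibroblast gene, varied less, at 1.16, 0.938 and 1.23 CPM in the same WT replicates. None of 6 tested fibroblast genes was called by edgeR. At an unadjusted p under 0.05 there were 0, against 13.3% of all tested genes higher and 10.8% lower.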
